A study of Mus musculus with 15 samples.

Results

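The 35 genes described here are markers of endothelial cells, the cells that line blood and lymphatic vessels. They were taken by gene symbol from the deposited expression table, and all 35 were found among its 12529 genes. The comparisons tested 34 of them, out of 11674 genes whose mean over all libraries reached 0.5 FPKM (fragments per kilobase of exon, scaled to sequencing depth). *Prox1*, with a mean of 0.241 FPKM, fell below that minimum. Every member had reads in every library, and each of the 34 tested members averaged at least 0.5 FPKM in each of the 3 groups.

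The libraries were made from polyadenylated RNA of the quadriceps, a thigh muscle, of male C57BL/6 mice, with 5 libraries in each of 3 groups. The control group (Con) was wild type and sedentary. The exercise group (Ex) was wild type and had free access to a running wheel for weeks, with the muscle taken hours after the last bout. The transgenic group (mTg) was sedentary and carried PGC1a Tg(+), in which the muscle creatine kinase promoter drives the transcriptional coactivator PGC-1α in muscle fibers and not in endothelium, and its littermates without the transgene were wild type. It was not stated which of the wild-type controls were littermates of the mTg mice. The labels do not say that each library came from a separate animal, so the p-values cover the spread between libraries.

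The 15 libraries held 11475817 to 16917490 reads, recovered from the spacing of the deposited values, and the members took 27911 to 44815 reads of each library. *Ppargc1a*, the gene of PGC-1α, was at 5.06 to 12.5 FPKM in the controls, 4.87 to 7.34 FPKM in the Ex group and 50.1 to 56.8 FPKM in the mTg group. The myofiber markers, such as *Acta1* and *Ckm*, summed to 82541 to 91199 FPKM in the controls, so the members are a small part of the RNA of this tissue. FPKM is scaled to sequencing depth, so a member's level also depends on how much RNA the other cells gave. Whether a level moved through that, more endothelial cells or more RNA per endothelial cell cannot be told apart in bulk muscle.

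Skeletal muscle is fed by a dense capillary bed in which endothelial cells wrap the fibers and control the passage of oxygen, fatty acids and water. Vessel growth is driven by vascular endothelial growth factors (VEGFs), which muscle fibers secrete and which bind receptors on the endothelium, while angiopoietins and the Tie receptors govern vessel maturation. Endothelial cells are held together by adherens and tight junctions, and their identity rests in large part on transcription factors of the ETS and SOX families. PGC-1α in muscle fibers is known to raise the production of VEGF.

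ETS factors bind DNA at a GGAA core, and 2 of the members, *Erg* and *Fli1*, are ETS factors. Promoter windows of 300 bases around the annotated start were given by RefSeq (GRCm38.p6) for 19 of the 35 members, 26 windows in all. Those of *Tie1*, *Ushbp1* and *Aqp1* are shown as examples. *Tie1* and *Ushbp1* were higher in both conditions and *Aqp1* in the mTg group. GGAAG or, for the other strand, CTTCC is in capitals and all other bases are in lower case.
Tie1: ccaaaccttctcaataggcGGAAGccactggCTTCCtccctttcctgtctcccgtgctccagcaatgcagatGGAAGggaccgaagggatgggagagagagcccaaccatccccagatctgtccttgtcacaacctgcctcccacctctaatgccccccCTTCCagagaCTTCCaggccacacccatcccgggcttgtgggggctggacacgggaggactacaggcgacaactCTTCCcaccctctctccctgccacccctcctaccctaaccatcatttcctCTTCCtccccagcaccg
Ushbp1: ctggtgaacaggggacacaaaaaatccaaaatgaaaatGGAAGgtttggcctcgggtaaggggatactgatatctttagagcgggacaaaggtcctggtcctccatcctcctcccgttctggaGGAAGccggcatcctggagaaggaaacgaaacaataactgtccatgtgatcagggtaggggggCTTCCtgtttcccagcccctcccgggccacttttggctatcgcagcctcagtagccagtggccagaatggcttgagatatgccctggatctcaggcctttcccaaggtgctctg
Aqp1: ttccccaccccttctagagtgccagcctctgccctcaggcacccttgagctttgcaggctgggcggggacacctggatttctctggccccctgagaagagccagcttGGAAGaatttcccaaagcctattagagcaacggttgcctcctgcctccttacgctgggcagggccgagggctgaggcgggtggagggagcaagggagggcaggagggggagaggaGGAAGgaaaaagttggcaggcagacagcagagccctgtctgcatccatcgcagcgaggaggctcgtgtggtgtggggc
The *Tie1* window lies at chr4:118489800-118490099, minus strand, that of *Ushbp1* at chr8:71395752-71396051, minus strand and that of *Aqp1* at chr6:55336049-55336348, plus strand. They hold 7, 3 and 2 matches. The windows of *Erg*, which was also higher in both conditions, are not shown and hold 0, 1 and 1. In the GENCODE M21 annotation *Tie1* starts at 118490061, inside its window, so most of that window falls within the gene. At least 1 match was found in 20 of the 26 member windows (76.9%) and in 8611 of 11416 windows of all genes (75.4%), so this short motif was about as common in the members as elsewhere. The 7 matches of *Tie1* are a count that 38 of the 11416 windows (0.333%) reach or exceed, a feature singled out after the sequences were seen. The longer motif CCGGAA, or TTCCGG, which can overlap GGAAG, was in 1 member window (3.85%, *Kdr*) and in 3082 of all windows (27.0%).

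More members were higher than lower in both conditions. Against the controls, 6 of the 34 tested members were higher in the Ex group (*Esam*, *Tie1*, *Ushbp1*, *Cdh5*, *Pecam1* and *Erg*), 1 was lower (*Plvap*) and 27 did not pass the test. In the mTg group 26 of 34 were higher and none was lower. A call here is a Benjamini-Hochberg adjusted p under 0.05 in limma, fitted on log2(FPKM + 1) over all tested genes, and fold changes are on that scale, which understates the change of low genes. Of all tested genes, 10.4% were called in the Ex group, 45.4% in the mTg group and 41.3% between the conditions. By direction, 5.39% were called higher and 5.02% lower in the Ex group, against 6 and 1 of the 34 members. With libraries scaled to equal sums of FPKM, 85.5% of the calls over all genes in the Ex group were higher, against 51.8% here, and 9 members were higher and 0 lower. In the mTg group 22.3% of all genes were called higher and 23.1% lower, against 26 members (76.5%) and 0, with no lower member at an unadjusted p under 0.05 or with voom, limma's method for counts, on the recovered reads.

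The median log2 difference of the 34 members from controls was 0.14 in the Ex group (range -0.31 to 0.51) and 0.50 in the mTg group (range -0.24 to 0.86). Over all tested genes the medians were -0.0056 and -0.0211. In the Ex group 28 members lay above and 6 below 0, and in the mTg group 33 and 1. The comparisons with controls share the same 5 control libraries, so the Ex and mTg groups were also compared directly.

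In that direct comparison 20 of the 34 members were lower in the Ex group than in the mTg group and none was higher, where 20.7% of all genes were called lower and 20.7% higher. No member was higher at an unadjusted p under 0.05 or with voom. The members' median difference was -0.34 (range -0.90 to 0.18), beside 0.0155 over all genes.

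Groups that did not overlap were fewer. All 5 Ex libraries lay above all 5 controls for 3 members (*Tie1*, *Esam* and *Ushbp1*), beside 4.92% of all genes, and below all 5 controls for none, beside 4.69%. All 5 mTg libraries lay above all controls for 18 members, beside 16.3%. All 5 Ex libraries lay below all 5 mTg libraries for 12 members, beside 14.9%.

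**Figure D1:**
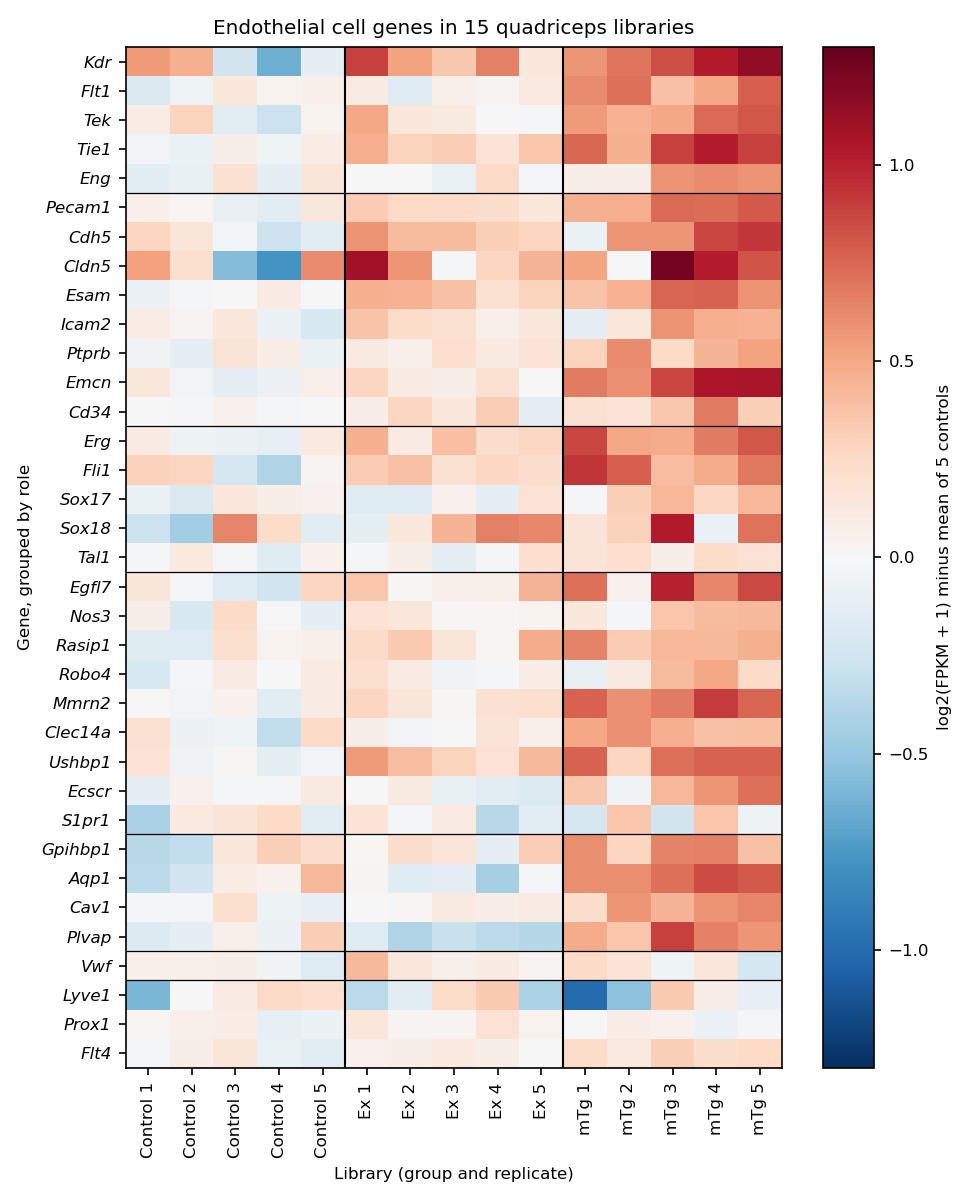
Heat map of the 35 endothelial genes (rows) in the 15 libraries (columns, grouped as Control, Ex and mTg); color is log2(FPKM + 1) minus the mean of the 5 controls. The mTg columns are the most uniformly above the control mean, with *Lyve1*, *S1pr1*, *Vwf* and *Prox1* among the rows that are not.

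In each library the median member lay above the control mean in both conditions. The median deviation of the 34 members from the control mean was 0.20, 0.13, 0.12, 0.11 and 0.14 in Ex libraries 1 to 5 and 0.42, 0.34, 0.49, 0.60 and 0.61 in mTg libraries 1 to 5, beside -0.07 to 0.07 in the controls. Over all tested genes the medians of the 15 libraries lay between -0.0176 and 0.0044. Between 24 and 27 members were above the control mean in an Ex library and between 28 and 33 in an mTg library, so the shift was not carried by 1 library of either group.

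**Figure D2:**
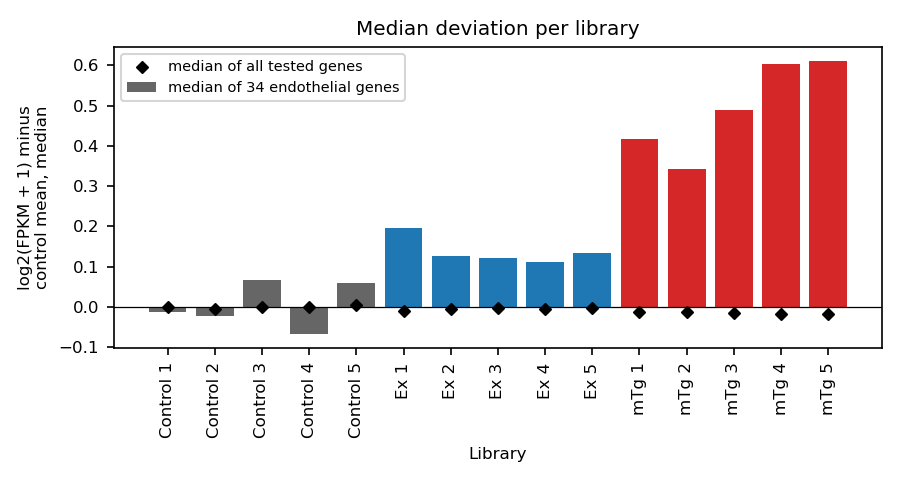
Median deviation from the control mean, in log2(FPKM + 1), of the 34 tested endothelial genes (bars) and of all tested genes (diamonds) in each of the 15 libraries. Member medians run from 0.11 to 0.20 in the Ex group and from 0.34 to 0.61 in the mTg group, while the all-gene medians stay near 0.

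The receptors that receive VEGF, angiopoietin and TGF-β signals on endothelium were all higher in the mTg group (5 of 5, median 0.61), and 1 of the 5, *Tie1*, was higher in the Ex group (median 0.15). Against the mTg group, 4 of the 5 were lower in the Ex group (median -0.46). *Tie1* (chr4:118471191-118490061, minus strand, as for all gene positions here in GRCm38 with GENCODE M21) encodes an orphan receptor that modulates angiopoietin signaling. It measured 14.3, 13.7, 15.6, 14.1 and 15.8 FPKM in controls 1 to 5, 20.7, 18.1, 18.6, 16.8 and 19.2 FPKM in Ex libraries 1 to 5 and 25.3, 20.6, 28.1, 30.9 and 28.04 FPKM in mTg libraries 1 to 5. Every Ex library was above every control, every mTg library was above every control, and the lowest mTg library overlapped the highest Ex library. The log2 difference was 0.32 ± 0.06, adjusted p = 0.00693 in the Ex group (1.27-fold in mean FPKM), and 0.80 ± 0.09, adjusted p = 1.51e-05 in the mTg group (1.81-fold). The Ex group differed from the mTg group by -0.48 ± 0.10, adjusted p = 0.00138.

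*Kdr* (chr5:75932827-75978458, minus strand), the main signaling receptor for VEGF-A, had the largest log2 difference of the members in either comparison with controls. It was at 17.6, 16.5, 9.76, 7.16 and 10.6 FPKM in the controls, 22.6, 17.2, 15.2, 18.99 and 12.9 in the Ex group and 17.97, 19.6, 21.7, 25.04 and 27.2 in the mTg group. Controls 1 and 2 stood above the other 3 and overlapped the Ex values, while all mTg libraries were above all controls. The mTg group was higher by 0.86 ± 0.20, adjusted p = 0.00334, a 1.81-fold difference in mean FPKM. The Ex group differed from controls by 0.51 ± 0.21, adjusted p = 0.150, and from the mTg group by -0.35 ± 0.14, adjusted p = 0.0571, neither of which passed. The difference from the mTg group passed without Ex 1, mTg 1 or mTg 2 (adjusted p = 0.0157 to 0.0491). Of the mTg differences from controls, that of *Emcn* was close to that of *Kdr*, at 0.85 ± 0.10, with a larger ratio of mean FPKM (1.89).

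*Flt1*, which encodes a VEGF receptor that also acts as a decoy, was at 10.1, 11.1, 12.9, 12.00 and 12.3 FPKM in the controls, 12.6, 10.2, 12.2, 11.9 and 12.8 in the Ex group and 18.3, 19.8, 15.4, 16.9 and 20.6 in the mTg group. The Ex libraries lay within the control range and the mTg libraries lay above all the others. *Flt1* was higher in the mTg group by 0.60 ± 0.09, adjusted p = 1.01e-04, while in the Ex group it measured 0.03 ± 0.07, adjusted p = 0.832, and the Ex-to-mTg difference was -0.57 ± 0.09, adjusted p = 1.31e-04. *Tek*, which encodes Tie2, the angiopoietin receptor, averaged 6.13 ± 1.099 FPKM (SD, n = 5) in the controls, 6.91 ± 1.22 in the Ex group and 9.82 ± 1.17 in the mTg group. *Tek* was higher in the mTg group by 0.61 ± 0.11, adjusted p = 4.85e-04 and differed in the Ex group by 0.15 ± 0.12, adjusted p = 0.452. Endoglin, the TGF-β co-receptor encoded by *Eng*, averaged 20.4 ± 2.44, 20.8 ± 2.003 and 27.3 ± 5.29 FPKM in the 3 groups. The *Eng* difference was 0.39 ± 0.12, adjusted p = 0.0212 in the mTg group, a call that was lost when Control 1, Control 4 or mTg 3, 4 or 5 was left out (adjusted p = 0.0507 to 0.0563), and 0.03 ± 0.08, adjusted p = 0.864 in the Ex group.

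**Figure D3:**
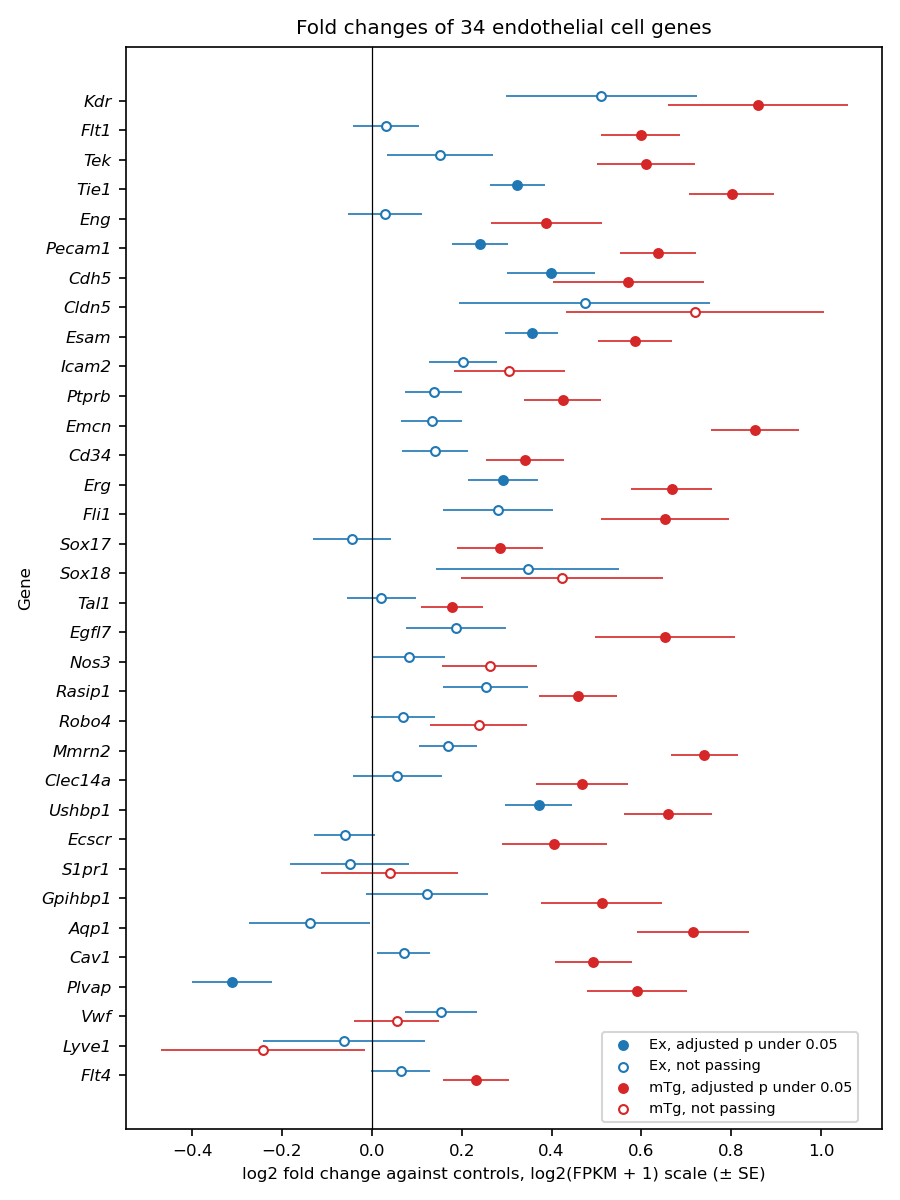
Log2 difference from controls (x axis, log2(FPKM + 1), ± SE) of the 34 tested endothelial genes in the Ex and mTg groups, 5 libraries each; filled points passed an adjusted p of 0.05. The mTg points lie to the right of the Ex points for most genes, and *Plvap* is the one gene called lower in the Ex group.

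Among the 8 junction and adhesion proteins, 3 were higher in the Ex group (median 0.22) and 6 in the mTg group (median 0.58), and 3 were lower in the Ex group than in the mTg group (median -0.24). *Esam* (chr9:37528078-37538319, plus strand), an endothelial adhesion molecule of tight junctions, was at 20.9, 21.6, 21.99, 23.7 and 21.9 FPKM in the controls. It was at 30.8, 30.4, 28.8, 25.4 and 27.1 in the Ex group and 28.7, 30.5, 37.8, 38.1 and 33.5 in the mTg group. Neither condition overlapped the controls, and the conditions overlapped each other. *Esam* was higher by 0.36 ± 0.06, adjusted p = 0.00354 in the Ex group (1.29-fold in mean FPKM) and by 0.59 ± 0.08, adjusted p = 7.13e-05 in the mTg group (1.53-fold). The direct difference of -0.23 ± 0.09, adjusted p = 0.0501 did not pass. It passed without Ex 1, mTg 1 or mTg 2 (adjusted p = 0.0162 to 0.0470), with some other scalings and in a fit of all 15 libraries.

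*Cdh5* (chr8:104101625-104144511, plus strand) encodes VE-cadherin, the adhesion protein of endothelial adherens junctions. It was at 37.1, 33.9, 29.6, 25.1 and 27.6 FPKM in the controls, 46.1, 40.6, 40.7, 37.9 and 36.95 in the Ex group and 28.5, 45.5, 45.7, 56.4 and 58.5 in the mTg group. The lowest mTg library fell inside the control range and the other 4 were above it, and Control 1 lay just above the lowest Ex library. *Cdh5* was higher by 0.40 ± 0.10, adjusted p = 0.0241 in the Ex group and by 0.57 ± 0.17, adjusted p = 0.0138 in the mTg group, and the direct difference was -0.17 ± 0.15, adjusted p = 0.394. That direct difference passed without mTg 1 (adjusted p = 0.0124). The Ex call was lost without Control 3 or 4 or Ex 1, 2 or 3 (adjusted p = 0.0519 to 0.0565), and in a fit of all 15 libraries.

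*Pecam1* (chr11:106654217-106750628, minus strand), the gene of CD31, a standard marker of endothelium, was at 27.04, 26.3, 23.9, 23.1 and 28.6 FPKM in the controls. The Ex libraries were at 32.5, 30.95, 30.7, 30.3 and 28.3 and the mTg libraries at 35.8, 36.01, 43.4, 43.04 and 45.2. Only Control 5 overlapped the Ex range, and the mTg libraries were above both other groups. The differences were 0.24 ± 0.06, adjusted p = 0.0294 in the Ex group, 0.64 ± 0.09, adjusted p = 4.56e-05 in the mTg group and -0.40 ± 0.08, adjusted p = 0.00107 between them. The Ex call was lost without Control 3 or 4 or Ex 1, 2, 3 or 4 (adjusted p = 0.0553 to 0.0743), and in the fit of all 15 libraries.

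*Emcn*, the gene of endomucin, a sialomucin of capillary and venous endothelium, was at 11.9, 10.4, 9.77, 10.1 and 11.2 FPKM in the controls, 13.1, 11.5, 11.3, 12.4 and 10.6 in the Ex group and 17.5, 16.6, 20.3, 23.2 and 23.3 in the mTg group. The Ex and control ranges overlapped, and every mTg library was above both. *Emcn* was higher in the mTg group by 0.85 ± 0.10, adjusted p = 1.18e-05 (1.89-fold in mean FPKM) and differed by 0.13 ± 0.07, adjusted p = 0.238 in the Ex group and by -0.72 ± 0.10, adjusted p = 4.87e-05 between the conditions. *Ptprb*, which encodes the phosphatase VE-PTP that acts on VE-cadherin and Tie2, averaged 7.36 ± 0.728, 8.18 ± 0.380 and 10.2 ± 1.18 FPKM in the control, Ex and mTg groups, and of its differences from controls the mTg one passed (0.42 ± 0.09, adjusted p = 0.00129). *Cd34*, a sialomucin that is also found on progenitor cells of muscle, averaged 30.8 ± 0.678, 34.3 ± 4.23 and 39.7 ± 6.06 FPKM, with 0.34 ± 0.09, adjusted p = 0.00573 in the mTg group and 0.14 ± 0.07, adjusted p = 0.256 in the Ex group.

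*Cldn5*, the tight junction claudin of endothelium, had a wide spread in every group. It was at 8.28, 6.40, 3.33, 2.74 and 8.80 FPKM in the controls, 12.7, 8.58, 5.32, 6.79 and 7.70 in the Ex group and 8.17, 5.38, 14.2, 12.04 and 10.3 in the mTg group. All 3 ranges overlapped. The differences of 0.47 ± 0.28, adjusted p = 0.306 in the Ex group and 0.72 ± 0.29, adjusted p = 0.0557 in the mTg group did not pass, and the mTg difference passed without Control 1, Control 5 or mTg 2, with voom, with equal sums of FPKM and in a fit of all 15 libraries. *Icam2*, an adhesion molecule that is always present on endothelium, averaged 6.75 ± 0.714, 7.91 ± 0.696 and 8.70 ± 1.82 FPKM and was called in no comparison, although its mTg difference passed without mTg 1 or 2 and in the fit of all 15 libraries.

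Of the 5 transcription factors, 1 was higher in the Ex group (median 0.28) and 4 in the mTg group (median 0.42). *Erg* (chr16:95359169-95586593, minus strand), an ETS factor that maintains endothelial identity, was at 3.77, 3.22, 3.19, 3.11 and 3.83 FPKM in the controls, 5.10, 3.75, 4.78, 4.17 and 4.32 in the Ex group and 7.08, 5.27, 5.16, 6.01 and 6.72 in the mTg group. Ex library 2 lay within the control range, the other 4 lay above it, and all mTg libraries were above all Ex libraries. The differences of *Erg* were 0.29 ± 0.08, adjusted p = 0.0347 in the Ex group, 0.67 ± 0.09, adjusted p = 5.33e-05 in the mTg group and -0.38 ± 0.09, adjusted p = 0.00598 between them. The Ex call was lost without Control 2, 3 or 4 or Ex 1, 3 or 4 (adjusted p = 0.0532 to 0.0857), and in the fit of all 15 libraries.

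The other ETS factor, *Fli1*, was at 3.79, 3.71, 2.33, 1.95 and 2.98 FPKM in the controls, 3.87, 4.05, 3.47, 3.67 and 3.56 in the Ex group and 6.38, 5.63, 4.11, 4.43 and 5.23 in the mTg group. Controls 3 and 4 were the lowest, Controls 1 and 2 overlapped the Ex group, and all mTg libraries were above the rest. The mTg difference was 0.65 ± 0.14, adjusted p = 0.00215 and the Ex difference 0.28 ± 0.12, adjusted p = 0.167. *Sox17*, a factor of arterial endothelium, averaged 2.30 ± 0.293, 2.20 ± 0.360 and 3.03 ± 0.482 FPKM and was higher in the mTg group by 0.28 ± 0.10, adjusted p = 0.0274, a call lost without Control 1, Control 2, mTg 3 or mTg 5 (adjusted p = 0.0618 to 0.0711). *Tal1*, a factor of blood and endothelial development, was low at 0.674 ± 0.121, 0.700 ± 0.156 and 0.891 ± 0.0816 FPKM. Its mTg difference of 0.18 ± 0.07, adjusted p = 0.0498 was lost in 8 of the 10 fits that left out 1 library (adjusted p = 0.0549 to 0.133). *Sox18*, which takes part in lymphatic and vascular development, was at 4.31, 3.72, 9.01, 6.58 and 4.85 FPKM in the controls, ranged over 4.93 to 9.15 FPKM in the Ex group and 5.07 to 12.2 in the mTg group, and was called in no comparison, although its mTg difference passed without Control 3.

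Among the 9 signaling, secreted and guidance proteins, 1 was higher in the Ex group (median 0.08) and 6 in the mTg group (median 0.46), and 5 were lower in the Ex group than in the mTg group. *Ushbp1* (chr8:71384272-71395802, minus strand), whose protein was named as a binding partner of harmonin, was at 10.3, 8.67, 9.07, 8.22 and 8.74 FPKM in the controls, 13.6, 12.2, 11.2, 10.4 and 12.3 in the Ex group and 15.9, 11.1, 15.4, 16 and 16.02 in the mTg group. Neither condition overlapped the controls, although the lowest Ex library exceeded the highest control by little, and mTg library 2 fell inside the Ex range. The differences were 0.37 ± 0.07, adjusted p = 0.00927 in the Ex group (1.33-fold), 0.66 ± 0.10, adjusted p = 1.25e-04 in the mTg group and -0.29 ± 0.10, adjusted p = 0.0371 between them. The call between the conditions was lost in 8 of the 10 fits that left out 1 library (adjusted p = 0.0518 to 0.0913) and with equal sums of FPKM.

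*Mmrn2*, which encodes multimerin-2, an extracellular matrix protein of vessels that binds CLEC14A, was at 6.60, 6.44, 6.94, 5.92 and 7.21 FPKM in the controls, 8.25, 7.48, 6.68, 7.71 and 7.77 in the Ex group and 11.9, 10.5, 11.1, 13.3 and 11.9 in the mTg group. The Ex range overlapped the controls and every mTg library was above both. The mTg difference was 0.74 ± 0.07, adjusted p = 3.32e-06 (1.77-fold in mean FPKM), the Ex difference 0.17 ± 0.06, adjusted p = 0.114 and the direct one -0.57 ± 0.08, adjusted p = 3.81e-05. *Clec14a*, the gene of that partner, averaged 1.78 ± 0.434, 1.86 ± 0.149 and 2.81 ± 0.236 FPKM, with 0.47 ± 0.10, adjusted p = 0.00219 in the mTg group and 0.06 ± 0.10, adjusted p = 0.759 in the Ex group.

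*Egfl7*, a secreted protein of endothelium whose gene also hosts a microRNA, averaged 32.05 ± 5.05, 36.6 ± 5.19 and 51.7 ± 11.8 FPKM and was higher in the mTg group by 0.65 ± 0.16, adjusted p = 0.00395. *Rasip1*, a Ras-interacting protein required for vessel lumens, averaged 6.14 ± 0.779, 7.52 ± 1.03 and 8.79 ± 0.817 FPKM, with 0.46 ± 0.09, adjusted p = 7.74e-04 in the mTg group and 0.25 ± 0.09, adjusted p = 0.110 in the Ex group. *Ecscr*, an endothelial cell surface protein that affects chemotaxis, averaged 7.72 ± 0.548, 7.38 ± 0.716 and 10.7 ± 2.19 FPKM and was higher in the mTg group by 0.41 ± 0.12, adjusted p = 0.0124. The other 3 genes of this class were called in no comparison, although *Nos3* was called higher in the mTg group with voom, in the fit of all 15 libraries and without Control 3 or mTg 2, and *Robo4* without mTg 1. *Nos3*, the endothelial nitric oxide synthase, averaged 5.54 ± 0.797, 5.90 ± 0.376 and 6.86 ± 1.04 FPKM, with 0.26 ± 0.11, adjusted p = 0.0594 in the mTg group. *Robo4*, a guidance receptor of endothelium, averaged 8.41 ± 0.788, 8.87 ± 0.701 and 10.2 ± 1.80 FPKM, and *S1pr1*, a sphingosine-1-phosphate receptor that stabilizes vessels, 18.4 ± 3.53, 17.6 ± 2.66 and 18.96 ± 4.24 FPKM.

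Of the 4 proteins of capillary exchange none was higher and 1, *Plvap*, was lower in the Ex group (median -0.03). All 4 were higher in the mTg group (median 0.55) and all 4 were lower in the Ex group than in the mTg group (median -0.64). None of the 4 was called higher in the Ex group with voom either. *Aqp1* (chr6:55336432-55348555, plus strand), the water channel of capillaries, had the highest level per length of the members. It was at 142, 152, 193, 188 and 245 FPKM in the controls, 186, 162, 165, 134 and 178 in the Ex group and 276, 275, 297, 326 and 315 in the mTg group. The Ex libraries overlapped the controls, with Ex library 4 below all of them, and the mTg libraries were all above the controls. The differences were -0.14 ± 0.13, adjusted p = 0.555 in the Ex group, 0.72 ± 0.12, adjusted p = 4.24e-04 in the mTg group (1.62-fold in mean FPKM) and -0.85 ± 0.09, adjusted p = 4.22e-06 between them, the Ex mean being 0.554 of the mTg mean. The RefSeq start used for the promoter lies upstream of the start of this GENCODE gene.

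*Plvap* (chr8:71497765-71511752, minus strand), which encodes the protein of the diaphragms of endothelial fenestrae and caveolae, was the one member called in opposite directions in the conditions. It was at 8.39, 8.68, 10.1, 9.06 and 12.2 FPKM in the controls, 8.43, 7.11, 7.66, 7.37 and 7.23 in the Ex group and 13.8, 12.6, 18.6, 15.7 and 14.8 in the mTg group. The highest Ex library reached just above the lowest control, the other 4 were below every control, and every mTg library was above every control. *Plvap* differed by -0.31 ± 0.09, adjusted p = 0.0435 in the Ex group (0.780 of the control mean), by 0.59 ± 0.11, adjusted p = 7.37e-04 in the mTg group and by -0.90 ± 0.09, adjusted p = 3.07e-06 between them. The lower call in the Ex group was lost without Control 3 or 4 or Ex 2, 3, 4 or 5, with voom, in a fit of all 15 libraries and when libraries were scaled to equal sums of FPKM; the difference between the conditions held in every alternative run.

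*Gpihbp1*, which carries lipoprotein lipase to the capillary lumen, was at 32.05, 33.1, 45.9, 51.7 and 48.8 FPKM in the controls, 42.3, 48.9, 46.5, 37.9 and 52.2 in the Ex group and 63.5, 50.7, 65.4, 65.7 and 54.3 in the mTg group. Controls 1 and 2 were the lowest of the 15 libraries and mTg library 2 fell inside the range of the other groups. The mTg difference was 0.51 ± 0.13, adjusted p = 0.00724 and the Ex difference 0.12 ± 0.14, adjusted p = 0.607. *Cav1*, the structural protein of caveolae, which fat and smooth muscle cells also make, averaged 72.8 ± 6.59, 76.3 ± 2.79 and 103 ± 11.2 FPKM, with 0.49 ± 0.09, adjusted p = 4.29e-04 in the mTg group and 0.07 ± 0.06, adjusted p = 0.486 in the Ex group.

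**Figure D4:**
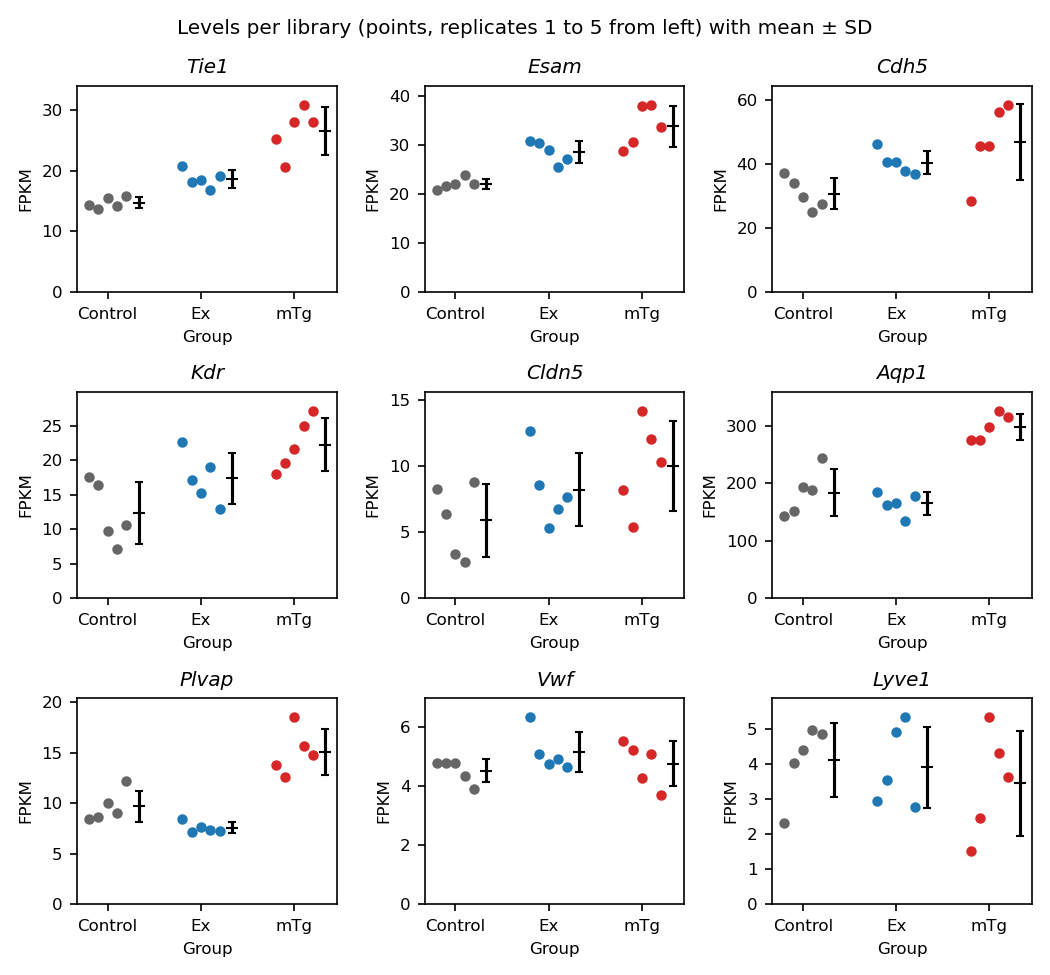
FPKM of 9 endothelial genes in the 5 libraries of each group (points), with the group mean and SD (bars). *Tie1* and *Esam* rise in both conditions, *Kdr* and *Aqp1* separate the mTg group from the controls, *Plvap* is low in the Ex group and high in the mTg group, and *Vwf* and *Lyve1* show no called difference.

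Neither the marker of larger vessels nor *Lyve1* was called in any comparison. *Vwf*, the gene of von Willebrand factor, which is found mainly in veins and larger vessels, was at 4.76, 4.76, 4.79, 4.33 and 3.91 FPKM in the controls, 6.34, 5.10, 4.74, 4.92 and 4.64 in the Ex group and 5.51, 5.22, 4.28, 5.07 and 3.69 in the mTg group. All 3 ranges overlapped, and its differences were 0.15 ± 0.08, adjusted p = 0.243 in the Ex group and 0.06 ± 0.09, adjusted p = 0.661 in the mTg group. *Lyve1*, a hyaluronan receptor of lymphatic endothelium that resident macrophages also carry, was at 2.33, 4.02, 4.42, 4.98 and 4.85 FPKM in the controls, 2.94, 3.56, 4.92, 5.36 and 2.78 in the Ex group and 1.51, 2.47, 5.34, 4.31 and 3.65 in the mTg group. It was the only member with an mTg difference below 0 (-0.24 ± 0.23, adjusted p = 0.408), and it was not called. *Flt4*, the receptor of VEGF-C, averaged 2.07 ± 0.259, 2.21 ± 0.103 and 2.60 ± 0.162 FPKM and was higher in the mTg group by 0.23 ± 0.07, adjusted p = 0.0197, a call lost without Control 4 (adjusted p = 0.0528). *Prox1*, the transcription factor that sets lymphatic identity, was read by only 8 to 26 reads in a library and averaged 0.212 ± 0.0718, 0.289 ± 0.0636 and 0.221 ± 0.0528 FPKM, so counting error limits what could be detected.

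The spread between the controls varied from member to member. The coefficient of variation over the 5 controls was 47.1% for *Cldn5*, 37.6% for *Sox18* and 36.6% for *Kdr*, with counting error alone at 9.77%, 8.69% and 3.25%. The lowest was 2.20% for *Cd34*, below its counting error of 2.80%. Controls 3 and 4 were the lowest for *Kdr*, *Cldn5* and *Fli1*, while Controls 1 and 2 were the lowest for *Gpihbp1*, *Aqp1* and *Sox18*, so the members did not vary together as 1 block. The median coefficient of variation of the 34 members was 12.6% in the controls, 9.67% in the Ex group and 15.01% in the mTg group, beside 9.63%, 9.43% and 12.9% over all tested genes.

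Endothelial genes outside the 35 were also mostly higher in the mTg group. Their list, like the members, was chosen with earlier results of these data known. Of all tested genes, 22.3% were called higher and 23.1% lower in the mTg group, and 5.39% higher in the Ex group. Of 29 tested genes of a list of 30 further endothelial genes, 1 was higher in the Ex group (*Gimap4*, 0.43 ± 0.09, adjusted p = 0.0110, median of the list 0.12). In the mTg group 21 were higher (median 0.55), led by *Palmd* (1.12 ± 0.09, adjusted p = 5.95e-07), *Gimap4* (0.95 ± 0.10, adjusted p = 3.32e-06), *Car4* (0.93 ± 0.18, adjusted p = 8.46e-04), a carbonic anhydrase of capillaries, and *Myct1* (0.87 ± 0.16, adjusted p = 7.72e-04). The 1 lower gene was *Afap1l1* (-0.29 ± 0.11, adjusted p = 0.0420).

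Beside 22.3% of all tested genes, 8 of 12 tested genes of arterial and venous endothelium were higher in the mTg group (median 0.26). They included *Efnb2*, the ephrin ligand of arteries (1.04 ± 0.10, adjusted p = 3.06e-06), *Nrp1*, a VEGF co-receptor (0.84 ± 0.12, adjusted p = 7.68e-05), and *Gja4*, a connexin of arterial endothelium (0.64 ± 0.11, adjusted p = 3.31e-04). Those not called in the mTg group were *Nr2f2* (-0.05 ± 0.12, adjusted p = 0.745), *Ackr1* (-0.19 ± 0.11, adjusted p = 0.196), *Selp* (0.18 ± 0.12, adjusted p = 0.257) and *Gja5* (0.26 ± 0.10, adjusted p = 0.0507). In the Ex group limma called 0 of the 12 (median 0.06), with 3 at an unadjusted p under 0.05 and 1 called with voom. Of 2 tested genes of the other lymphatic list, limma and voom called 0 in either comparison with controls, with 0 at an unadjusted p under 0.05.

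Ligands of these receptors were measured beside them. Of 18 tested vascular ligands and Notch pathway genes, 9 were higher and 2 lower in the mTg group (median 0.34), and 2 were higher in the Ex group (median 0.07). Over all tested genes the shares were 22.3% higher and 23.1% lower in the mTg group, and 5.39% higher in the Ex group. *Vegfb*, which encodes a ligand of the *Flt1* product, averaged 71.7 ± 5.79 FPKM in the controls and 201 ± 28.7 FPKM in the mTg group, a log2 difference of 1.47 ± 0.09 (adjusted p = 6.00e-08). *Vegfa*, the ligand of the *Kdr* product, went from 72.2 ± 11.2 to 124 ± 20.5 FPKM (0.77 ± 0.13, adjusted p = 2.45e-04) and was at 71.0 ± 5.82 FPKM in the Ex group. *Apln*, which encodes a peptide of endothelial tip cells, and *Aplnr*, its receptor, were higher in the mTg group by 1.44 ± 0.11 (adjusted p = 4.01e-07) and 1.38 ± 0.19 (adjusted p = 4.94e-05). *Aplnr* was also higher in the Ex group, by 0.74 ± 0.19 (adjusted p = 0.0263), as was *Angpt1*, the ligand of Tie2, by 0.52 ± 0.10 (adjusted p = 0.00719). The genes lower in the mTg group were *Figf*, which encodes VEGF-D (-0.46 ± 0.09, adjusted p = 7.36e-04), and *Pdgfb*, which recruits pericytes (-0.28 ± 0.09, adjusted p = 0.0294).

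Markers of other cells in muscle were counted beside the shares over all tested genes. Those shares were 22.3% called higher and 23.1% lower in the mTg group, and 5.39% and 5.02% in the Ex group. In the mTg group all 7 myofiber markers were lower, and their sum was 59209 to 69597 FPKM against 82541 to 91199 in the controls. In the Ex group 4 of the 7 were lower (*Tnnt3*, *Ckm*, *Atp2a1* and *Myh4*). *Acta1* (-0.0027 ± 0.07), *Neb* (0.0017 ± 0.05) and *Ttn* (-0.08 ± 0.04) were not called there, so the decrease did not extend to every myofiber marker. The sum was 70899 to 80305 FPKM, so the Ex and mTg sums both lay below the controls. The 12 smooth muscle and pericyte markers had 6 higher and 1 lower in the mTg group, with sums of 1187 to 1506 FPKM against 1144 to 1209 in the controls. The lower gene was *Abcc9* (-0.63 ± 0.09, adjusted p = 1.08e-04). In the Ex group 3 (*Cspg4*, *Pdgfrb* and *Des*) were higher and 2, *Acta2* (-0.59 ± 0.10, adjusted p = 0.00379) and *Tagln* (-0.48 ± 0.08, adjusted p = 0.00314), were lower, with sums of 1236 to 1424 FPKM. These sums are mostly *Des*, the gene of desmin, which muscle fibers also make, at means of 972, 1135 and 1084 FPKM in the control, Ex and mTg groups. Without *Des*, a setting added after the data were seen, the sums were 190.04 to 223 FPKM in the controls, 192 to 205 in the Ex group and 199 to 246 in the mTg group, and all 3 ranges overlapped. These sums mix opposite changes in the mTg group. The mean of *Abcc9* was 46.5 FPKM in the controls and 29.8 in the mTg group, and that of *Rgs5*, 1 of the 6 higher, was 59.3 and 80.3.

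Of 12 tested macrophage markers 5 were higher in the mTg group, with sums of 115 to 194 FPKM against 91.9 to 133 in the controls. In the Ex group limma and voom called none of them and none had an unadjusted p under 0.05, with sums of 93.4 to 161 FPKM. The fibroblast markers had 2 higher and 3 lower of 11 in the mTg group, near the 45.4% of all tested genes called there. Their sums overlapped in all groups. Of 7 adipocyte markers 1 was lower in the Ex group, *Lep* (-0.48 ± 0.12, adjusted p = 0.0249), at low means of 0.840 FPKM in the controls and 0.309 in the Ex group. In the mTg group 2 were higher. They were *Adig* (3.10 ± 0.14, adjusted p = 3.57e-09, from a mean of 7.04 to 66.8 FPKM) and *Fabp4* (0.47 ± 0.10, adjusted p = 0.00205), which capillary endothelium also expresses and which stands in the list of further endothelial genes. The other 5 (*Cfd*, *Adipoq*, *Plin1*, *Retn* and *Lep*) had mTg differences of -0.56 to -0.22 that did not pass, and the median of the list was -0.34. The sums of the 7 were 534 to 815 FPKM in the mTg group against 328 to 564 in the controls and 421 to 527 in the Ex group. Without *Fabp4* and *Adig*, also a setting added after the data were seen, they were 53.3 to 209 FPKM in the mTg group, 54.6 to 188 in the controls and 60.2 to 155 in the Ex group. Of 6 erythroid markers only *Alas2* was among the genes tested, and it was higher in the mTg group (0.71 ± 0.20, adjusted p = 0.0115). No listed marker that was tested was at 0 throughout a group, and the part of these other cells in the members' differences was not tested.

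For 6 members, *Egfl7*, *Eng*, *Nos3*, *Rasip1*, *Plvap* and *Ecscr*, the annotation places another coding gene over part of the gene, and the treatment of reads in the overlap was not stated. Of the 7 Ex calls, those of *Tie1*, *Esam* and *Ushbp1* held in every fit that left out 1 library and in every other alternative, and of the 26 mTg calls 22 did, the exceptions being *Eng*, *Sox17*, *Tal1* and *Flt4*. Of the 20 calls between the Ex and mTg groups 15 held in every alternative, the exceptions being *Egfl7*, *Eng*, *Ptprb*, *Ushbp1* and *Flt4*, the last of which held in 1 of the 10 fits that left out 1 library.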

How the data were processed

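Single-end RNA-seq reads of polyadenylated quadriceps RNA were aligned by the authors to mm10 with STAR, per the labels. Groups were compared with DESeq2 through a BaseSpace application, whose version the paper gives as 1.1.0. The annotation and counting rule were not stated. The authors deposited FPKM values for 15 libraries, 5 per group. Their columns of fold changes and p-values were not used, nor was the separate Ex table. Control FPKM deposited beside the mTg libraries in a second table differed from those used here by 1 constant per library (0.993 to 1.01).

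Genes averaging 0.5 FPKM or more over the 15 libraries were fitted with limma 3.58.1 (R 4.3.3) on log2(FPKM + 1) with a mean-variance trend, each comparison on its own 10 libraries, with two-sided tests and Benjamini-Hochberg adjusted p-values over 11674 genes. The count tool of the study was not applied because the values are FPKM. Whole reads (tolerance 0.01) were recovered from the steps of the FPKM values and tested with voom as an alternative. The other alternatives were a pseudocount of 0.1, no filter, 3 other scalings, no trend, a fit of all 15 libraries, the replicate number as a block, and leaving out each library. The fit was tested on simulated data.

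Every member is named; of other lists, up to 4 called genes with the largest change per comparison, and counts of 5 or fewer where singled out. The members and lists were chosen with earlier results of these data known.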

Additional observations from a re-analysis of the deposited data

Results flagged for a closer look

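Among 105 sets of 5 libraries (35 genes in 3 groups), 5 held a library that stood apart from the other 4, and chance gives about 1 in 20. *Tek* was at 9.00 FPKM in Ex library 1, where the next highest was 6.83. *Vwf* was at 6.34 FPKM in the same library, where the next was 5.10. *Eng* was at 24.3 FPKM in Ex library 4, with the next at 20.3. *Cav1* was at 84.0 FPKM in Control 3, with the next at 71.7. *Ushbp1* was lowest in mTg library 2, at 11.1 FPKM, where the next lowest was 15.4.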

How the results depend on the processing

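In the mTg group 25 to 29 members were higher and none lower under the other settings, and 23 to 28 higher when 1 library was left out. The Ex group was lower than the mTg group in 16 to 21 members, and in 16 to 23 with 1 library left out. The Ex counts moved more. The 6 members higher in the Ex group became 3 in the fit of all 15 libraries, and 3 to 7 with 1 library left out (3 without Control 3, Control 4, Ex 1 or Ex 3). With libraries scaled to equal sums and with voom 9 were higher, *Ptprb*, *Rasip1* and *Mmrn2* being added. The 1 lower member, *Plvap*, became 0 with equal sums, with voom, in the fit of all 15 libraries and with the replicate block, and 0 to 1 with 1 library left out. Scaling to equal sums also moved the calls over all genes, to 1224 higher and 208 lower in the Ex group (85.5% higher, against 51.8%) and to 3042 and 1902 for Ex against mTg (61.5%, against 50.01%); the cause was not tested.

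Differences near 0 changed sign and none of these passed. In the Ex group they became 0.0417 for *S1pr1*, 0.0245 for *Ecscr*, 0.0149 for *Lyve1* and 0.0221 for *Sox17* with equal sums, and 0.0314, 0.0087, 0.0025 and 0.0237 with voom. With 1 library left out, the ranges that crossed 0 in the Ex group were -0.0256 to 0.0773 for *Eng*, -0.0164 to 0.0814 for *Flt1*, -0.1533 to 0.0286 for *S1pr1*, -0.2095 to 0.024 for *Lyve1*, -0.0222 to 0.1196 for *Clec14a* and -0.0274 to 0.059 for *Tal1*. In the mTg group the range was -0.0648 to 0.1103 for *S1pr1*, and for Ex against mTg -0.2031 to 0.076 for *Sox18* and -0.0077 to 0.3259 for *Lyve1*.

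Over all tested genes, deviations of libraries with the same replicate number correlated weakly or not at all (-0.081 to 0.189 for Ex and controls, -0.216 to 0.148 for mTg and controls and -0.192 to 0.0443 for Ex and mTg). This cannot show whether such libraries shared a litter or batch, and the main fit did not pair them. With the replicate block, 5 members were higher in the Ex group, the calls of *Pecam1* and *Plvap* being lost, 28 in the mTg group (*Robo4*, *Nos3* and *Sox18* gained, *Tal1* lost) and 19 lower in Ex than in mTg. Reads limit *Prox1* (8 to 26 a library), which stayed uncalled without the filter.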
